A study of Mus musculus with 6 samples.

Results

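The interferon regulatory factor (IRF) and signal transducer and activator of transcription (STAT) genes that the array names, Irf1, Irf2, Irf3, Irf5, Irf7, Irf8, Irf9, Stat2 and Stat3, were compared between 1G11-mock and 1G11-SOD3 cells. They are 9 of the 22220 genes named on the array, and were found by the gene name in the annotation of each non-control spot. The 9 genes had 11 probes of 60 bases, printed as 20 spots. 1G11 is a mouse microvascular endothelial cell line labeled as strain C57BL/6NCrLBR. 1G11-SOD3 cells overexpressed extracellular superoxide dismutase (SOD3), an enzyme that removes superoxide outside the cell, and 1G11-mock cells did not. Both lines received the conditioned medium of N202.1A cells, a mouse mammary cancer line, for 6 h before RNA was taken, so no array shows either line without that medium. Total RNA of 3 biological replicates per line was hybridized in 1 color (Cy3) to SurePrint Mouse G3 arrays of a single slide. Each line filled a slide row of its own, so that cell line and slide row cannot be told apart.

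IRF and STAT proteins carry interferon and cytokine signals to promoters. Sensors of nucleic acids and of microbial products act through kinases that phosphorylate Irf3, Irf5 and Irf7, which then drive interferon genes. Type I and type III interferon receptors act through the Janus kinases Jak1 and Tyk2. Stat2 and Irf9 are then part of the complex ISGF3, which binds the interferon-stimulated response element (ISRE) and raises a set of antiviral genes, among them Irf7, Stat2 and Irf9 themselves. Interferon-γ acts through the gamma-activated site (GAS), a site that also raises Irf1, and Stat3 carries the signal of IL-6 family cytokines. In endothelial cells these pathways also control adhesion molecules, chemokines and antigen presentation.

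The probe that carried the called difference was that of Irf7. It matches 60 bases of the transcript from base 796 and lies at chr7:148450664-148451014 on the minus strand in the array annotation, which does not name its genome build. It covers 351 bases of the genome, so its sequence joins parts of the gene that lie apart.
Irf7 probe: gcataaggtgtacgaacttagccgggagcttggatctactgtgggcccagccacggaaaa
The other probes are named without sequence.

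The promoters of Irf7, Irf1 and Stat2, the members with the largest differences between the lines, are shown because ISGF3 and STAT dimers act at such sites. Each runs from 250 bases before to 50 bases after a gene start in RefSeq (GRCm38.p6), 5′ to 3′ on the strand of the gene. Capitals mark an ISRE core, searched on both strands as GAAA, any 2 bases, then GAAA, or a GAS, searched as TTCNNNGAA, which reads alike on both strands.
Irf7, chr7:141266375-141266674, minus strand: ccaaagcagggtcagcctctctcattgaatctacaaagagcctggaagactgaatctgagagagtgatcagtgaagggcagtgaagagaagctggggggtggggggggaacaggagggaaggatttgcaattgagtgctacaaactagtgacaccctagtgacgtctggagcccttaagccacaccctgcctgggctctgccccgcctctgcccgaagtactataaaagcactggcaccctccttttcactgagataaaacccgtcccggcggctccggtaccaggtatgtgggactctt
Irf1, chr11:53769764-53770063, plus strand: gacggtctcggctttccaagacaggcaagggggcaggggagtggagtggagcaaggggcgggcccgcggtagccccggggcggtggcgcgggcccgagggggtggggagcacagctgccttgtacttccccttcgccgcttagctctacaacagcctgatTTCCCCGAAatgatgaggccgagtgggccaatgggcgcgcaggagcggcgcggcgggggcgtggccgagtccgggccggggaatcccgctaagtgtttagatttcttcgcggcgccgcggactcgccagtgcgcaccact
Stat2, chr10:128270248-128270547, plus strand: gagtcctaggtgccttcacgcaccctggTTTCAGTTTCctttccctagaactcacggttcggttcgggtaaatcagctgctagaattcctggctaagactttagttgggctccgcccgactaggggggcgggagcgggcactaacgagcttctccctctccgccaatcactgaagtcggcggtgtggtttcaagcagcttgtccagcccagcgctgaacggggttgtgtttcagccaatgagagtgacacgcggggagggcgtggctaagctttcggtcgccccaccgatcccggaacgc
The Stat2 promoter held an ISRE core that began 222 bases before the start, and the Irf1 promoter shown a GAS that began 90 bases before its start. The second Irf1 promoter of the table held neither motif. The Irf7 window held neither of these letters. Among all 32851 promoters of the table, 3.44% held the ISRE core and 8.30% the GAS. Of the other members, the Irf2 promoter held both, without overlap of the motifs, and 1 of the 2 Irf8 promoters held 2 GAS. These matches are letters in a window, and no binding was measured.

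All values below are log2 intensities after background correction and quantile normalization, and a difference is the mean of 1G11-SOD3 minus the mean of 1G11-mock. A probe was called where the change exceeded 2-fold with an adjusted p below 0.05 (limma, Benjamini-Hochberg adjustment over all 55971 probe and place values). A probe counts as above background where the scanner software marks it well above background. Between 34.2% and 43.8% of spots were so marked on an array, and no spot was saturated. A rectangle in the middle of the arrays read dim on the 1G11-mock arrays. Of the probes printed there, 11.9% were called higher in 1G11-SOD3 and 0.0621% lower. Irf2 and Irf8 have their only spot in this rectangle and are reported apart. As a second reading, each spot was adjusted for the median deviation of its 200 nearest bright spots (position adjustment). Sod3, the check of the labels, lies in the rectangle too. It read 13.61, 12.66 and 9.86 on the 1G11-mock arrays and 16.37, 16.30 and 16.26 with SOD3. It differed by 4.27 (adjusted p = 0.0076), and 2.75 after the position adjustment. The array of 1G11-SOD3 replicate 3 held the lowest value of most interferon target genes described here.

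**Figure D1:**
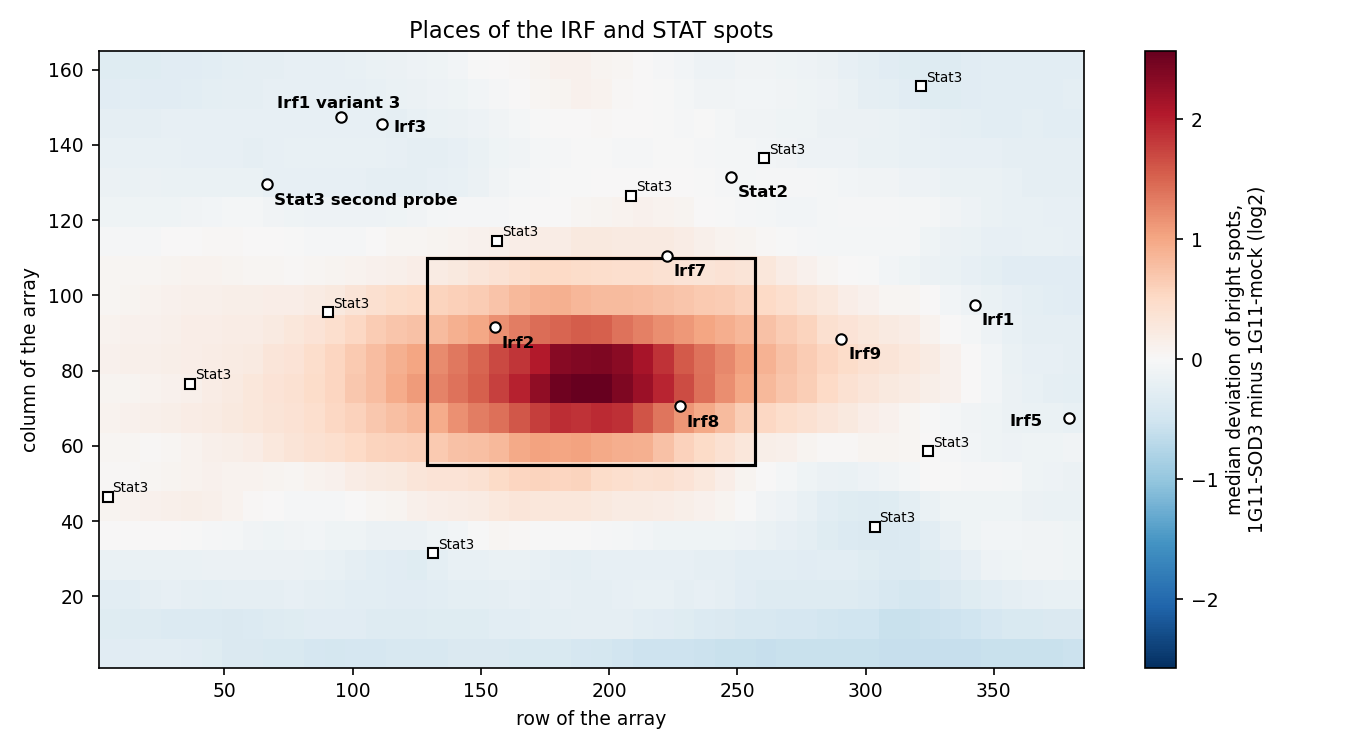
Places of the 20 IRF and STAT spots on the array (horizontal axis, row; vertical axis, column). The rectangle is the middle of the array, and colors give the median deviation of the nearest bright spots, 1G11-SOD3 minus 1G11-mock, on the log2 scale; circles are probes with 1 spot and squares the 10 copies of a Stat3 probe. Irf2 and Irf8 lie in the red middle, where the deviation at both was 1.27, Irf7 lies at its edge (0.37), and Irf1 and Stat2 lie where it was -0.09 and -0.05.

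Irf7 fell 2.88-fold in 1G11-SOD3 cells, and was the 1 called member among the 9 probes outside the middle. None of these 9 probes was called higher. Irf1 and Stat2 were lower by 1.92-fold and 1.88-fold, and Irf3 by 1.47-fold, with no overlap between the lines, but none of them passed both parts of the call. The better read Stat3 probe was higher by 1.24-fold and was not called. Of all probes outside the middle, 1.20% were called lower and 0.660% higher. Of those above background on all 6 arrays, 3.29% were called lower and 1.27% higher. Members above background on all arrays had 7 probes outside the middle, of which 1 was called lower. RNA of whole cultures was measured, so fewer expressing cells and less RNA per cell cannot be told apart.

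**Figure D2:**
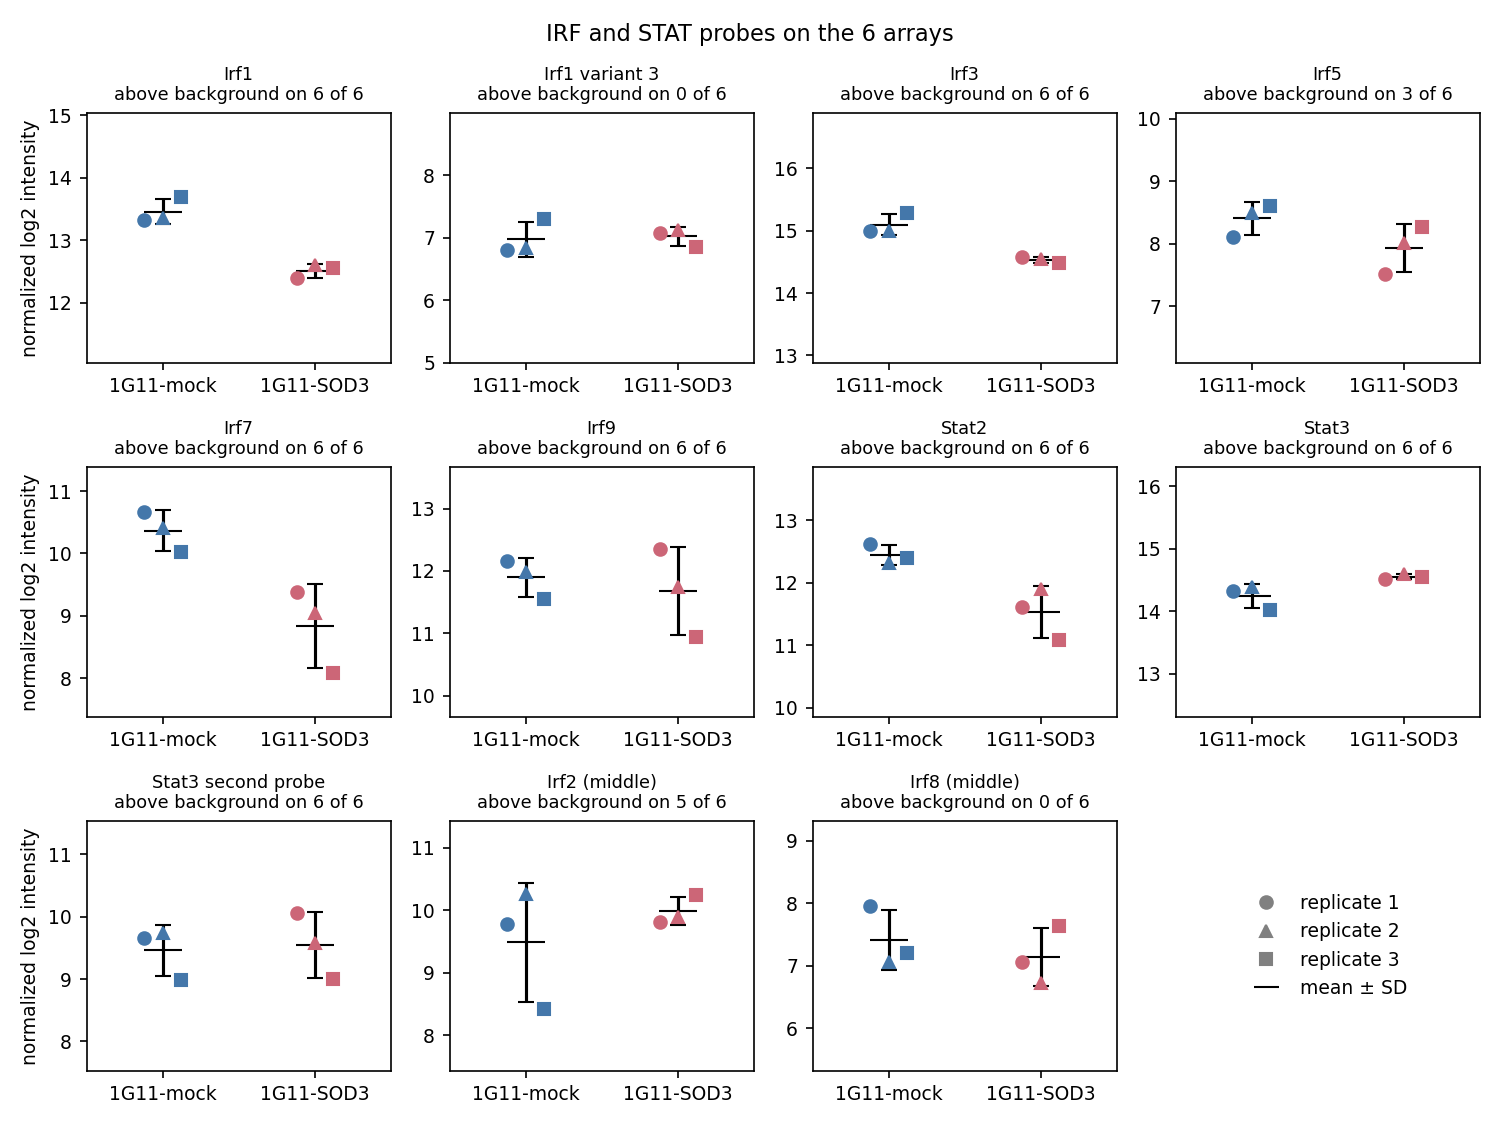
Normalized log2 intensity of the 11 IRF and STAT probes on each array (vertical axes, each spanning 4 log2 units), for 1G11-mock (blue) and 1G11-SOD3 (red). Symbols are replicates and black bars the mean ± SD (n = 3); the lines do not overlap for Irf1, Irf3, Irf7, Stat2 and the first Stat3 probe, and Irf7 has the widest difference (10.36 against 8.84).

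Irf7 amplifies the type I interferon response and is itself an interferon target. Its probe read 10.67, 10.40 and 10.02 on the 1G11-mock arrays and 9.39, 9.04 and 8.08 on the 1G11-SOD3 arrays. The 2 lines did not overlap, with a gap of 0.62, and replicate 3 was the lowest of both lines. The means were 10.36 ± 0.33 and 8.84 ± 0.68 (SD, n = 3), a difference of -1.53 (SE 0.333, limma adjusted p = 0.0314). The spot lies at row 222 and column 110, at the edge of the dim middle, and the bright spots around it read 0.37 higher in 1G11-SOD3. After the position adjustment the difference was -1.76 (adjusted p = 0.0121), where 2.03% of such probes were called lower. The call was lost without 1G11-mock replicate 1 (adjusted p = 0.0886), 1G11-mock replicate 2 (0.119), 1G11-SOD3 replicate 2 (0.0588) or 1G11-SOD3 replicate 3 (0.0932), by limma. The difference without each array in turn lay between -1.79 and -1.13.

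Irf1 drives genes of antigen presentation and inflammation downstream of interferon-γ and NF-κB. The first of its probes lies at chr11:53590746-53590805 on the plus strand. It read 13.33, 13.36 and 13.69 on the 1G11-mock arrays and 12.39, 12.60 and 12.55 with SOD3. The lines did not overlap and the gap of 0.73 was wider than that of Irf7. The difference was -0.94 (SE 0.221, limma adjusted p = 0.0432), which stayed under 2-fold. Among probes above background on all arrays, 3.57% were lower at this adjusted p whatever their fold. The adjusted p lay between 0.059 and 0.172 when any array was left out, and was 0.0752 after the position adjustment, by limma. The other Irf1 probe, designed on transcript variant 3, was not well above background on any array, so no fold is given.

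Stat2 acts with Irf9 in ISGF3. Its probe lies at chr10:127729834-127729893 on the plus strand. It read 12.62, 12.32 and 12.40 on the 1G11-mock arrays and 11.61, 11.90 and 11.09 on the 1G11-SOD3 arrays. The lines did not overlap, with a gap of 0.42. The difference was -0.91 (SE 0.256, limma adjusted p = 0.0929) and -0.82 after the position adjustment (adjusted p = 0.126).

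Irf9 is the DNA-binding subunit of ISGF3. It read 12.16, 11.98 and 11.55 on the 1G11-mock arrays and 12.35, 11.74 and 10.95 on the 1G11-SOD3 arrays (chr14:56228806-56228865, plus strand). The highest and the lowest value both belonged to 1G11-SOD3. The difference was -0.22, with a 95% interval from -0.95 to 0.52 (adjusted p = 0.825, limma). The bright spots around it read 0.48 higher in 1G11-SOD3. After the position adjustment the lines did not overlap, with a difference of -0.64 (adjusted p = 0.257). Without 1G11-SOD3 replicate 3 the difference, with no position adjustment, was 0.15.

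Irf3, which needs no synthesis to act after a sensor has fired, read between 14.99 and 15.29 on the 1G11-mock arrays. On the 1G11-SOD3 arrays it read 14.57, 14.55 and 14.48 (chr7:52257700-52257759, plus strand). The lines did not overlap, and the difference was -0.56 (SE 0.215, limma adjusted p = 0.246). It was -0.31 after the position adjustment. Irf5, which acts below Toll-like receptors, passed the background on 1 1G11-mock array and on 2 of 1G11-SOD3. Its values ran from 8.11 to 8.61 in 1G11-mock and from 7.52 to 8.27 in 1G11-SOD3. The lines overlapped (difference -0.47, limma adjusted p = 0.453; -0.03 after the position adjustment).

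The better read Stat3 probe (chr11:100749598-100749657, minus strand) was printed as 10 copies over the array, none in the middle. Its mean over copies was 14.32, 14.39 and 14.02 on the 1G11-mock arrays and 14.51, 14.60 and 14.55 on the 1G11-SOD3 arrays. The lines did not overlap, by a gap of 0.12, and the difference was 0.31 with a 95% interval from -0.17 to 0.79 (limma adjusted p = 0.581). The copies share 1 RNA per array and differ in place. Their differences ran from -0.02 to 0.62, higher in 1G11-SOD3 at 9 of 10 places, with an SD of 0.236 among places. After the position adjustment they ran from 0.19 to 0.44, with an SD of 0.088. Stat3 was the member with 2 probes above background. The second Stat3 probe read 9.65, 9.74 and 8.99 in 1G11-mock and 10.06, 9.57 and 9.0 in 1G11-SOD3. Its lines overlapped (difference 0.08, 95% interval from -0.60 to 0.76, limma adjusted p = 0.937).

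Of the 7 member probes outside the middle that were above background on all arrays, 4 were lower and 1 higher without overlap between the lines. Of all such probes, 20.8% were lower and 7.98% higher without overlap. The median difference of the 7 probes was -0.56, against -0.17 over all such probes. The latter median depended on the scaling: it was -0.09 with 75th percentile scaling and 0.01 after the position adjustment. The median of the 7 probes was taken in the main setting alone, so it compares with -0.17 and not with these values.

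Irf2 and Irf8, in the dim middle, were not called. Irf2, which competes with Irf1 for its sites, passed the background on 2 1G11-mock arrays and on all 3 of 1G11-SOD3. It read 9.78, 10.26 and 8.42 in 1G11-mock and 9.81, 9.90 and 10.24 in 1G11-SOD3. The lines overlapped, and the difference was 0.49 (SE 0.397, limma adjusted p = 0.634). The bright spots around it read 1.27 higher in 1G11-SOD3, and after the position adjustment the sign turned, to -0.69 (adjusted p = 0.15). The direction of Irf2 is therefore not given. Irf8, a factor of myeloid and B cells, stayed below the background mark on all 6 arrays, so no fold is given. Among 139 bright probes with copies both inside and outside the middle, the difference inside exceeded that outside by a median of 1.28, and by 0.21 after the position adjustment.

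**Figure D3:**
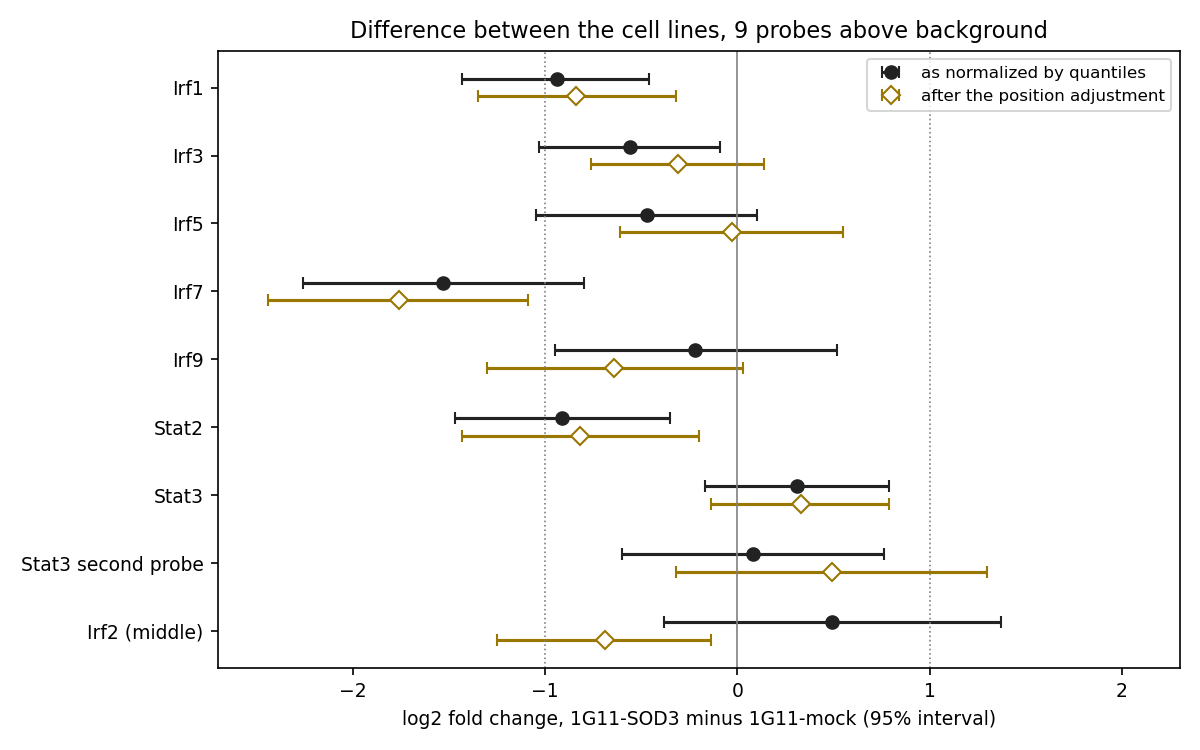
Log2 difference between 1G11-SOD3 and 1G11-mock (horizontal axis) with its 95% interval from limma, for the 9 IRF and STAT probes above background on at least 1 array. Filled circles are values normalized by quantiles, open diamonds those after the position adjustment, and dotted lines mark 2-fold. Irf7 lies beyond -1 in both (-1.53 and -1.76), Irf1 and Stat2 lie between -0.94 and -0.82, and Irf2, in the middle of the array, changes sign (0.49 and -0.69).

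Over the 6 arrays, the genes whose pattern was most like that of Irf7 were Plcd3 (Pearson r = 0.9970), Itpr3 (0.9966) and Trnp1 (0.9959). They were taken from 9323 genes outside the middle and above background on all arrays, so a likeness over 6 arrays is a description. Plcd3 encodes a phospholipase C and Itpr3 an inositol trisphosphate receptor. Their own differences were -0.44, -0.90 and -1.61.

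Lists of other interferon and STAT pathway genes were then counted, each gene by its brightest probe outside the middle. The lists held 112 genes, each counted once, of which 20 were called lower in 1G11-SOD3 and 1 higher. Usp18 and Ifih1 stand on 2 of the lists. Over all genes, 1.93% were called lower and 1.19% higher, whereas 17.9% of the listed genes were called lower. The lists were chosen with earlier results of these data known, so this contrast is a description. Of the 112 genes, 77 were above background on all arrays. Of all probes so marked outside the middle, 3.29% were called lower. By list, ISGF3 targets held the most genes called lower (10 of 22), then IRF1 and GAS targets (4 of 18). STAT3 targets (3 of 15) stood little apart from sensors, adaptors and kinases (2 of 15) and negative regulators (2 of 16). After the position adjustment each of these last lists held 2. Of the 112 genes, the number called lower was 13 without 1G11-mock replicate 2 and 12 without 1G11-mock replicate 3. It was 11 without 1G11-SOD3 replicate 2 and 10 without 1G11-SOD3 replicate 3. It was 19 after the position adjustment, with 3 called higher. Calls gained there were Socs1 and Irf4, higher, and Ifit3 (-1.19), Vegfa (-1.21) and Cxcl9, lower; Irf4 and Cxcl9 stayed below the background mark on all arrays.

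**Figure D4:**
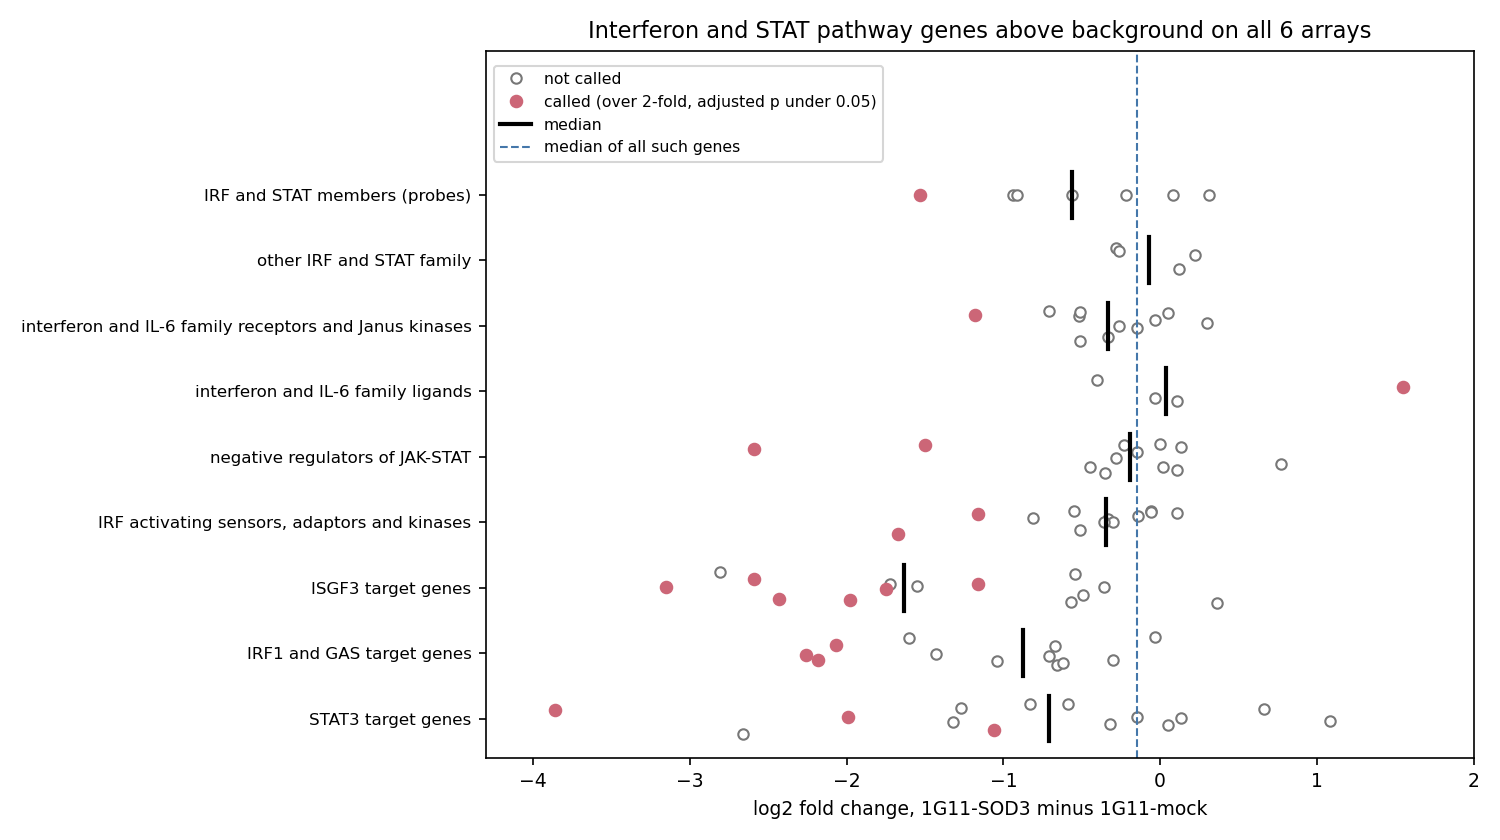
Log2 difference between 1G11-SOD3 and 1G11-mock (horizontal axis) of genes above background on all 6 arrays, by list; the top line holds the 7 IRF and STAT probes. Red points were called, black bars are medians and the dashed line is the median of all such genes (-0.15). The ISGF3 target genes have a median of -1.64 (-1.3 after the position adjustment, which is not drawn).

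Among ISGF3 target genes, 10 of 22 were called lower and none higher. The 14 above background on all arrays had a median difference of -1.64, against -0.15 over all such genes. After the position adjustment the median of the 14 was -1.3, and that of all probes so marked outside the middle was 0.01. Oas2, which makes the activator of RNase L, read 13.01, 12.05 and 13.31 in 1G11-mock and 10.53, 10.39 and 8.0 in 1G11-SOD3. It fell by 3.15 on the log2 scale (SE 0.577, limma adjusted p = 0.0137). Mx2, an antiviral GTPase, read 10.42, 10.28 and 11.14 in 1G11-mock and 8.39, 8.42 and 7.73 in 1G11-SOD3. It fell by 2.43 (SE 0.294, limma adjusted p = 0.0014). Mx1 was above background in no 1G11-SOD3 array and was at least 2.52-fold lower there (limma adjusted p = 0.00335). Usp18, the protease that removes ISG15 and restrains the interferon receptor, fell by 2.59 (6.01-fold). Oas3, above background on 1 of the 1G11-SOD3 arrays, fell by 2.28. The differences were -1.98 for Ifi44, -1.75 for Parp14 and -1.48 for Ifit1, which binds foreign RNA, with limma adjusted p of 0.00258, 0.0452 and 0.0309. The remaining called genes were Cmpk2 and Ifih1. In each of the 10 called genes the lines did not overlap, and in 9 of them the lowest value was that of 1G11-SOD3 replicate 3. The call used these same values and favors such a split, so the split adds no support. Isg15 and Bst2, named after their values were seen, were not called. Isg15 read 14.20, 13.78 and 14.09 in 1G11-mock and 13.59, 13.39 and 10.43 in 1G11-SOD3 (limma adjusted p = 0.293). Bst2 read between 15.47 and 15.53 in 1G11-mock and 14.77, 14.44 and 12.13 in 1G11-SOD3 (adjusted p = 0.134). For both of these probes all 1G11-SOD3 arrays were below all 1G11-mock arrays and replicate 3 lay far below its fellows. A second Isg15 probe, in the dim middle, overlapped between the lines (difference -0.07, and -0.57 after the position adjustment). Binding of a probe to other copies of a gene family was not tested.

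Among IRF1 and GAS target genes, 4 of 18 were called lower and none higher. The 12 above background on all arrays were all lower, with a median of -0.88 (-0.89 after the position adjustment). Gbp2 and Gbp3, interferon-induced GTPases of host defense, both fell (differences -2.18 and -2.26). Gbp2 read 10.94, 10.57 and 12.06 in 1G11-mock and 9.39, 9.28 and 8.36 in 1G11-SOD3 (limma adjusted p = 0.0119). Cxcl10, a chemokine for T cells, fell by 2.07 from 10.31, 9.55 and 11.71 to 8.71, 8.66 and 8.0 (limma adjusted p = 0.0313). After the position adjustment its difference was -1.45 (adjusted p = 0.0835). Nlrc5, the activator of MHC class I genes, was above background in no 1G11-SOD3 array and was at least 3.48-fold lower there (limma adjusted p = 0.00872). A second, dimmer Nlrc5 probe did not show this, with a difference of 0.32.

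**Figure D5:**
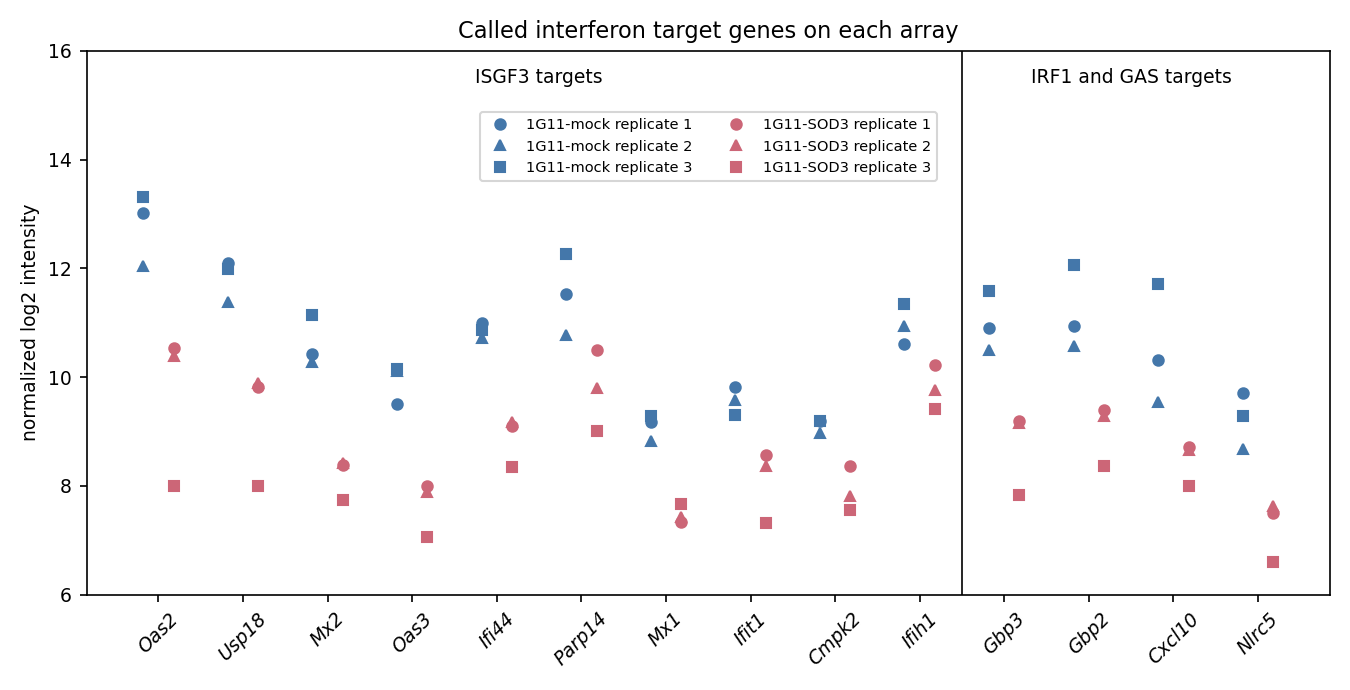
Normalized log2 intensity (vertical axis) of the 14 called ISGF3, IRF1 and GAS target genes on each array, 1G11-mock in blue and 1G11-SOD3 in red, with 1 symbol per replicate. In each gene the 3 red symbols lie below the 3 blue ones, and 1G11-SOD3 replicate 3 (red square) is the lowest in all but Mx1. The genes were called on these same values.

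Among STAT3 target genes, 3 of 15 were called lower and none higher, with a median of -0.71 over the 14 above background on all arrays. After the position adjustment this median was -0.43. Without overlap between the lines, 8 of the 14 were lower and 2 higher, Birc5 (1.08) and Timp1 (0.66). Of all probes so marked outside the middle, 20.8% were lower and 7.98% higher without overlap. Saa3, an acute-phase protein, read 10.69, 11.05 and 15.25 in 1G11-mock and 7.90, 8.46 and 9.06 in 1G11-SOD3. The lines did not overlap, but 1G11-mock replicate 3 lay far above its fellows (difference -3.86, SE 0.920, limma adjusted p = 0.047). Icam1, a receptor for leukocyte integrins, fell by 1.99 (adjusted p = 0.0314) and Bcl2l1, an inhibitor of apoptosis, by 1.06 (adjusted p = 0.0391), by limma. The study too listed Icam1 as repressed on its arrays. Its RT-qPCR, another measure of mRNA, found similar Icam1 levels in both lines, unstimulated or after TNF-α. After the position adjustment Saa3 and Bcl2l1 were no longer called (adjusted p = 0.0583 and 0.0861). Socs3, the usual feedback target of Stat3, read 12.31 ± 0.05 in 1G11-mock and 12.45 ± 0.19 in 1G11-SOD3 (SD, n = 3) and was named after its value was seen. With the position adjustment it was 0.52 higher in 1G11-SOD3 without overlap (limma adjusted p = 0.195).

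Upstream of the factors, genes were counted in the same way. Of 13 receptors and Janus kinases, Tyk2 fell by 1.18 (limma adjusted p = 0.0438), from 10.56, 11.06 and 11.53 to 9.60, 9.93 and 10.06. Its difference was -0.88 after the position adjustment (adjusted p = 0.1). Of 15 sensors, adaptors and kinases, Tlr4, the receptor for lipopolysaccharide, fell by 1.67 (limma adjusted p = 0.0215) and Ifih1, a sensor of viral RNA, by 1.16 (adjusted p = 0.0492). Of 16 negative regulators, Usp18 and Cish were called, both lower, and after the position adjustment Socs1 was called higher too (1.13, limma adjusted p = 0.0415). Cish, a feedback inhibitor of Stat5 signals, read 10.25, 10.01 and 10.26 in 1G11-mock and 8.42, 8.91 and 8.68 in 1G11-SOD3 (difference -1.5, limma adjusted p = 0.00494). Of 12 ligands, Ctf1, a cytokine of the IL-6 family, was the 1 called, and rose by 1.55 (limma adjusted p = 0.00407). It read 8.74, 8.71 and 8.77 in 1G11-mock and 10.58, 10.23 and 10.05 in 1G11-SOD3. The interferon genes Ifnb1, Ifna4 and Ifng stayed below the background mark on all arrays. Ifnl3, a type III interferon, was above it on all arrays, as were Il27 and Clcf1. The mean of Ifnl3 was 8.94 in 1G11-mock and 8.54 in 1G11-SOD3, and the lines overlapped.

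None of the 7 other IRF and STAT family genes was called. Irf4 was called higher after the position adjustment (limma adjusted p = 0.0188), with no fold given. The brightest were Stat6, with a difference of -0.26, and Stat5b, with 0.12. Of the listed genes, 15 had probes in the dim middle alone and were not counted. Among these 15, Ifnar2, a chain of the type I interferon receptor, and Socs7 were called higher, with differences of 3.26 and 3.98. The bright spots around them read 2.14 and 2.2 higher, and after the position adjustment they were still called, at 1.11 and 1.72 (limma adjusted p = 0.0468 and 0.0397). Eif2ak2 and Ccnd1 were called higher as well (1.89 and 2.69), but not after the position adjustment, and Bcl3 was called lower after it (-1.06).

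Over 16 other settings and the 6 omissions of an array, Ctf1, Cish, Usp18, Mx1, Mx2, Oas3, Ifi44, Gbp3 and Nlrc5 were called each time. Nlrc5 was not called where a gene was the mean of its probes (-0.83), and the other 8 were. Tyk2, Ifih1, Cmpk2, Icam1 and Bcl2l1 were still called under at most 1 of the 6 omissions. Tlr4, Ifit1, Parp14, Cxcl10 and Saa3 were still called under 2 of the 6.

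Markers of cell types moved between the lines as well. Of 8 fibroblast and pericyte markers, 5 were called higher in 1G11-SOD3 and none lower, with differences of 3.1 for Col1a1, 2.62 for Acta2 and 2.39 for Pdgfrb. The bright spots around Col1a1 read 0.61 higher in 1G11-SOD3, and its difference was 2.53 after the position adjustment. All 5 were still called after it. Rgs5, a pericyte marker, stayed below the background mark on all arrays and was not called. Lum and Col1a2, the other called ones, were above background in no 1G11-mock array and were at least 2.47-fold and 1.5-fold higher in 1G11-SOD3. Their summed normalized intensity, on the linear scale, ran from 22100 to 36200 in 1G11-mock and from 42100 to 175000 in 1G11-SOD3. Dcn, which was not called and read 17.05 on 1G11-SOD3 replicate 3, made up much of it. Without Dcn the sums ran from 5240 to 8100 and from 29700 to 38900. Of 9 endothelial markers, Egfl7, where the bright spots around it read 0.93 higher in 1G11-SOD3, was called higher (difference 1.82) but not after the position adjustment (1.00, limma adjusted p = 0.0888), and 6, among them Cdh5, Tek, Tie1 and Erg, stayed below the background mark on all arrays. Kdr, the receptor for VEGF, was above background on all 6 arrays, and the summed intensity of the 9 ran from 8640 to 9760 in 1G11-mock and from 7140 to 8450 in 1G11-SOD3. Without Kdr, the brightest, they ran from 1350 to 1720 and from 2060 to 3040. These latter sums hold Egfl7, which read 9.05, 8.73 and 7.97 in 1G11-mock and 10.84, 10.67 and 9.72 in 1G11-SOD3. They therefore do not show a rise of the other endothelial markers. No leukocyte marker of 11 was called, 8 of them including Ptprc and Spi1 stayed below that mark throughout, and the sums ran from 18600 to 25700 and from 20500 to 25300, or from 3190 to 4180 and from 3120 to 3500 without Itgam. Of 6 mammary epithelial markers outside the middle none was called, Epcam stayed below the mark throughout, and the sums ran from 67300 to 112000 and from 44400 to 84500. Nearly all of that was Krt19, without which they ran from 898 to 1010 and from 895 to 1080. Krt14, with its spot in the dim middle, was called higher (difference 4.82, and 2.36 after the position adjustment). The part of these shifts in the differences of IRF, STAT and target genes was not tested.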

How the data were processed

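Total RNA of 3 1G11-mock and 3 1G11-SOD3 replicates was read on 1-color arrays. The authors deposited, per array, scanner output (Feature Extraction 10.7.3.1) with the mean intensity and local background intensity of each spot, not normalized between arrays. They also deposited a table of log2 values, background corrected (normexp, offset of 50) and quantile normalized, with a median of 7.52 on each array, used here as an alternative. From the scanner intensity, normexp correction (offset of 50), log2 and quantile normalization were computed on 59305 non-control spots with limma 3.58.1 in R 4.3.3. Readings with an outlier flag (3 of 120 member spot readings, all of Stat3 copies) were left out. Spots of a probe were averaged, in the middle and elsewhere apart, giving 55971 values fitted by limma with empirical Bayes variances. The number of arrays, 3 per line, limits the precision.

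The members and gene lists were chosen with earlier results of these data known. Named genes are every member probe, each called gene of a pathway list (of lists with over 8, the 8 with the largest change), the 2 brightest of a list with none, Sod3 and the 3 genes most like a called member. Other genes named, all cell type markers among them, were chosen after their values were seen. The main fit did not pair the arrays. Replicate numbers, which are also the columns of the slide, entered as a block in an alternative fit only. Deviations of same-numbered arrays correlated at 0.14, 0.14 and 0.24. Fold bounds set each array of a line without signal to the lowest signal well above background on that array, or to its own reading where that was higher. Some items are not reported here. The script was tested on simulated data. Figures used matplotlib 3.10.9 and tables pandas 2.3.3 in Python 3.11.15.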

Additional observations from a re-analysis of the deposited data

How the results depend on the processing

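The count of 1 called IRF or STAT probe outside the middle was 0 without background correction, with an offset of 16, with cyclic loess and with the middle left out before normalization, and between 0 and 1 with an array left out. Irf7 kept its direction in all 22 alternatives, from -2.60 with the processed signal to -1.13; its limma adjusted p in the 4 settings that ended the call was 0.0511, 0.0517, 0.0696 and 0.0714. In the middle, the count rose from 0 to 1 with the processed signal and with both position adjustments (200 and 400 spots), where the probe was Irf8, which is not well above background on any array. The 21 called pathway genes became 32 with the processed signal, and between 11 and 17 with an array left out. Those called lower, 20, were 13 without background correction and 13 with the middle left out, and between 10 and 16 with an array left out. The 1 called higher became 2 with 75th percentile scaling, 4 with the processed signal, 3 with the position adjustment, 4 with 400 spots (beside 18 lower), and 1 to 2 with an array left out. Irf2 turned to -0.28 with the processed signal and to -0.69 and -0.60 with the position adjustments, and lay between -0.04 and 0.90 with an array left out. Irf9 lay between -0.54 and 0.15 and the second Stat3 probe between -0.17 and 0.35 with an array left out. The causes were not tested. Irf1, Irf3, Irf5, Stat2 and the first Stat3 probe kept their direction and stayed uncalled in each alternative run; Irf5 had no value with dim probes left out, nor Irf2 with the middle left out.

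With the replicate number as a block, the adjusted p of Irf7 was 0.00466 by limma and no member's call changed. The block called 27 pathway genes, 20 of the 21 among them, and 7 further ones, a change under 1.5 times. Signal over background limits Irf5, Irf8 and the Irf1 variant 3 probe, and the middle of the array limits Irf2.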
